A study of Mus musculus with 9 samples.

Results

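Homeostatic chemokines are small secreted or membrane-bound proteins that place lymphocytes and other leukocytes within tissues, and 10 genes of this kind were followed across the colon of 9 mice: *Cxcl13*, *Ccl19*, *Ccl21a*, *Ccl20*, *Ccl28*, *Cxcl12*, *Cxcl14*, *Cxcl16*, *Cx3cl1* and the scavenging receptor gene *Ackr3*. They were picked out by gene symbol, with earlier results of these data known, and are 10 of the 27719 genes and loci counted. The control group was 3 C57BL/6J mice given distilled water. The DSS group was 3 mice of the same strain given 2.5% dextran sodium sulfate, which injures the colon epithelium, in drinking water for 7 days. The DSS + EA group was 3 mice given the same DSS and, after 5 days of modeling, electroacupuncture (EA) at ST36 of both hind limbs once a day over 5 days (30 minutes, 2 Hz, 0.2 mA). Control and DSS mice were held for the same time without EA, and the sources used here give no age. The comparisons ask how DSS changed the colon, and whether EA changed the colon of DSS mice.

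CXCL13, CCL19 and CCL21 are the chemokines of lymphoid stroma and lymphatic vessels: CXCL13 draws B cells through CXCR5, and CCL19 and CCL21 draw T cells and dendritic cells through CCR7. CXCL12 is made by fibroblasts and endothelium, acts through CXCR4, and is removed by ACKR3, which binds it without the usual G protein signal. In the gut, epithelial CCL20 draws cells with CCR6 to lymphoid follicles and CCL28 draws plasma cells with CCR10 to the mucosa, while CXCL16 and CX3CL1 are made as membrane-bound ligands of CXCR6 and CX3CR1 that proteases can cut free.

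Library totals were between 2627695 and 4235576 reads, and 3 counts were worth 0.708 to 1.14 CPM (reads scaled to library totals that the TMM method had adjusted). CPM is not corrected for gene length, so levels are compared between mice and not between genes. PCR copies were not told apart from separate molecules. All 10 genes were among the 12566 genes that passed the filter on low counts, and a gene is called here when its adjusted p (edgeR's quasi-likelihood test, Benjamini-Hochberg over all genes tested) is under 0.05. The study's stricter threshold for a DEG, a change of more than 2.5 on the log2 scale in either direction at an unadjusted P under 0.01, was counted as well. It was applied here to the edgeR fit, whereas the study used DESeq2, so the DEG calls and shares below are not the study's own. Each library was made from the colon of a separate mouse. In these bulk samples, fewer cells of a type and less RNA per cell cannot be told apart. DSS mouse 1 stood apart from the other DSS mice in markers of cell types: its summed colon epithelium markers were 7626 CPM, against 2967 and 1456 CPM in DSS mice 2 and 3, and its summed neutrophil markers were 4526 CPM, against 23602 and 27207 CPM.

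In the DSS group 7 of the 10 genes stood above their control level (*Cxcl13*, *Ccl19*, *Ccl21a*, *Ccl20*, *Cxcl12*, *Cxcl16* and *Ackr3*), and 21.5% of all genes tested were called higher. *Ccl28* and *Cx3cl1* were lower, against 19.5% of all genes called lower, and *Cxcl14* was not called. The higher DEGs among them were *Cxcl13*, *Ccl19* and *Ackr3*, 3 of 10, where 6.62% of all genes tested were higher DEGs. The median log2 fold change of the 10 genes was 1.92, and that of all genes tested was 0.02.

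In the DSS + EA group 5 of the 10 genes were lower than in the DSS group (*Cxcl13*, *Ccl21a*, *Cxcl12*, *Cxcl16* and *Ackr3*), with 18.3% of all genes tested called lower. *Cx3cl1* was the 1 member called higher, against 17.2% of all genes tested. *Cxcl13* and *Ackr3* were lower DEGs, and 3.50% of all genes tested were. The other members, *Ccl19*, *Ccl20*, *Ccl28* and *Cxcl14*, were not called. The median log2 fold change was -0.85 over the 10 genes and -0.02 over all genes. This comparison uses the same 3 DSS mice as the comparison with the control group, so a deviation of these mice enters both with opposite sign.

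Between the DSS + EA and control groups, *Cxcl13*, *Ccl20* and *Cxcl16* were higher, 3 of 10 where 3.00% of all genes tested were called. None of the 10 was lower, where 0.637% of all genes were called lower by the same edgeR test, and none had an unadjusted p under 0.05 in that direction. The median log2 fold change was 0.79 over the 10 genes and 0.00 over all genes. DESeq2 also called none lower. Of the 3 higher calls, *Cxcl13* alone remained without control mouse 2 or 3 or DSS + EA mouse 1 or 3, and *Ccl20* alone without control mouse 1.

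**Figure D1:**
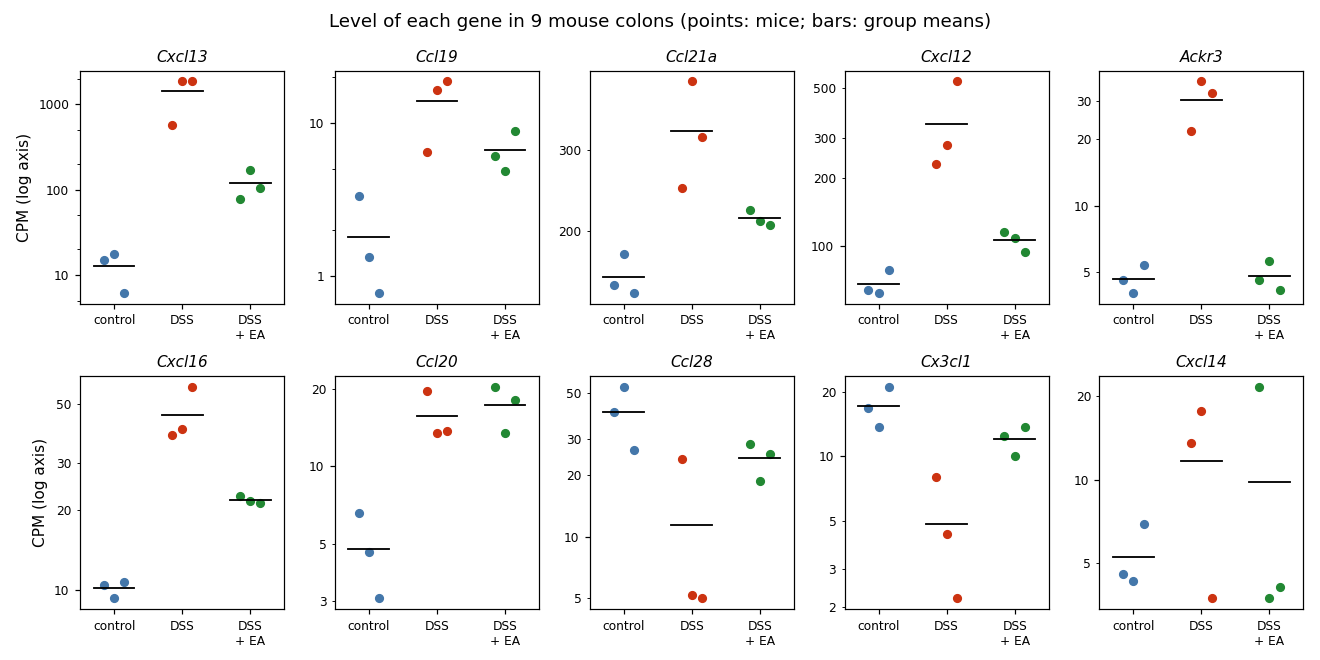
CPM of each of the 10 genes on a log axis, with each point a mouse and each bar a group mean of 3 mice. The DSS points of *Cxcl13*, *Cxcl12*, *Ackr3* and *Cxcl16* lie above all control and DSS + EA points, those of *Ccl20* lie among the DSS + EA points, and *Cx3cl1* is lowest with DSS.

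**Figure D2:**
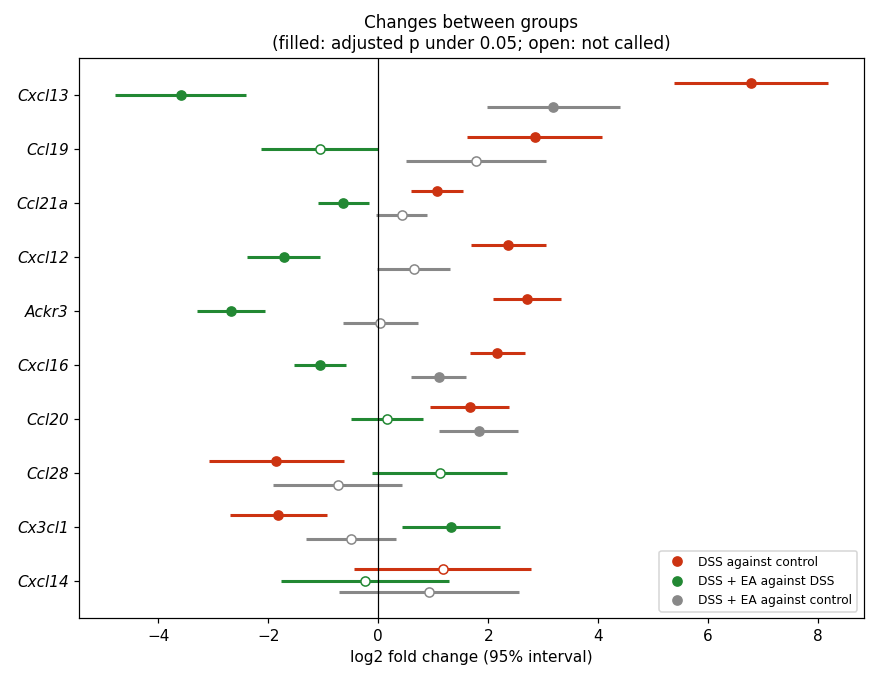
Log2 fold change of each gene in the 3 comparisons, with 95% intervals from the edgeR fit over 9 libraries and filled points for an adjusted p under 0.05. *Cxcl13* has the largest change of the 10 genes in each comparison, and *Ackr3* has opposite changes of about the same size with DSS and with EA.

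*Cxcl13* (ENSMUSG00000023078, chr5:95956951-95961068 of GRCm38, + strand) encodes the B cell chemokine of lymphoid follicles. It had 15.0, 17.6 and 6.13 CPM in control mice 1 to 3, 577, 1857 and 1861 CPM in the DSS mice and 77.9, 171 and 106 CPM in the DSS + EA mice. The 3 groups did not overlap: the lowest DSS mouse was above every DSS + EA mouse, and the lowest DSS + EA mouse above every control mouse. It rose with DSS by 6.78 on the log2 scale (edgeR adjusted p = 7.45e-05, standard error 0.63). With EA it fell by 3.60 on the log2 scale (edgeR adjusted p = 0.00131, standard error 0.53), and the level in DSS + EA mice remained 9.06-fold above control (edgeR adjusted p = 0.0128). That difference from control was not called without control mouse 1 (edgeR adjusted p = 0.0728). Across the 9 libraries the genes whose log2 CPM was most like that of *Cxcl13* were *Spon1* (Pearson r = 0.996), *Ednra* (r = 0.995) and *Crispld2* (r = 0.992), among all genes tested. These values describe 9 libraries in 3 groups that differ in many genes.

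*Ccl19* (ENSMUSG00000071005, chr4:42754525-42756577, - strand) encodes a CCR7 ligand of T cell zones. Its level was 3.30, 1.33 and 0.766 CPM in the control mice, 6.43, 16.5 and 18.7 CPM in the DSS mice and 6.09, 4.86 and 8.88 CPM in the DSS + EA mice. All DSS and DSS + EA mice were above all control mice, and the DSS and DSS + EA mice overlapped through DSS mouse 1. With DSS it rose by 2.84 on the log2 scale (edgeR adjusted p = 0.003, standard error 0.55), and 3.63 without control mouse 1. The difference with EA was -1.07 (95% interval -2.13 to -0.0018, edgeR adjusted p = 0.106, standard error 0.48) and passed the threshold without DSS mouse 1 (-1.37, edgeR adjusted p = 0.022). Against control, the DSS + EA group was at 1.77 (edgeR adjusted p = 0.143, standard error 0.57). The genes most like *Ccl19* over the 9 libraries were *Lat* (r = 0.968), *Csf2rb* (r = 0.959) and *Ms4a6c* (r = 0.958).

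*Ccl21a* (ENSMUSG00000094686, chr4:42772860-42773993, - strand) encodes a form of the CCR7 ligand CCL21. It stood at 152, 178 and 146 CPM in the control mice, 248, 425 and 320 CPM in the DSS mice and 222, 210.3 and 206 CPM in the DSS + EA mice. The 3 groups did not overlap, with the DSS + EA mice between the others. *Ccl21a* rose by 1.06 on the log2 scale with DSS (edgeR adjusted p = 0.00353, standard error 0.21) and fell by 0.64 when EA was added (edgeR adjusted p = 0.0389, standard error 0.21). The call with EA was lost in 12 of 18 alternatives, with the highest adjusted p, 0.115 (edgeR, log2 fold change -0.43), without DSS mouse 2. The DSS + EA group lay 0.42 above control (edgeR adjusted p = 0.343, standard error 0.21). *Medag* (r = 0.986), *Serpina3f* (r = 0.981) and *Mmp12* (r = 0.979) were most like *Ccl21a*.

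*Ccl19* and *Ccl21a* both have near-identical copies on chromosome 4 to which reads of the same sequence can be assigned, and how the deposited counts divide such reads is not given in the sources used here. The transcript of *Gm21541* (chr4:41903610-41904743, + strand) matches that of *Ccl21a* at 99.3% over 870 bases, with 6 differences, of which 2 are in the coding sequence of 399 bases. These coding stretches are shown because they are the coding positions at which a read can tell the copies apart. Positions are counted from 1 at the first base of the transcript, the *Ccl21a* base is given first, sequences run 5′ to 3′ on the coding strand as in GENCODE M21 (GRCm38), and the differing base is in capitals.
Ccl21a, T159A (chr4:42773733.0-42773761.0, - strand): agtgatggagggggTcaggactgctgcct
Gm21541, T159A (chr4:41903842.0-41903870.0, + strand): agtgatggagggggAcaggactgctgcct
Ccl21a, C269T (chr4:42773520.0-42773548.0, - strand): gttctCaccccggaagcactctaagcctg
Gm21541, C269T (chr4:41904055.0-41904083.0, + strand): gttctTaccccggaagcactctaagcctg

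*Gm21541* had 59.7, 74.5 and 49.8 CPM in the control mice, 168, 198 and 189 CPM in the DSS mice and 137, 127 and 166 CPM in the DSS + EA mice. All DSS + EA mice were above all control mice and below all DSS mice. This copy rose by 1.59 on the log2 scale with DSS (edgeR adjusted p = 0.000339, standard error 0.20), and the difference with EA was -0.37 (edgeR adjusted p = 0.165, standard error 0.20). Against control the DSS + EA group was higher by 1.23 (edgeR adjusted p = 0.0104, standard error 0.20). Of the reads of both genes together, *Gm21541* had 25.4% to 29.5% in control mice, 31.8% to 40.4% in DSS mice and 37.7% to 44.6% in DSS + EA mice, so that its share was lower in every control mouse than in every DSS or DSS + EA mouse. With the reads of the copy added, an alternative chosen after seeing the data, the mean CPM was 220 ± 29.1 for control, 516 ± 103 for DSS and 356 ± 17.5 for DSS + EA (SD, n = 3 in each). The summed level rose with DSS by 1.23 on the log2 scale (edgeR adjusted p = 0.00109), and the difference with EA, -0.53, no longer passed the threshold (edgeR adjusted p = 0.054). The copies *Gm13304*, *Ccl21b* and *Gm10591* were listed at 0 in every mouse.

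*Gm2564* (chr4:42629719-42631714, + strand) matches *Ccl19* at 98.9% over 447 bases. The 3 control mice had 2, 3 and 1 reads on it, the DSS mice 30, 59 and 75, and the DSS + EA mice 12, 17 and 20. The DSS mice were above all DSS + EA mice, which were above all control mice. In the edgeR fit its difference with EA was -1.49 (standard error 0.40, adjusted p = 0.0169). Summed with *Ccl19*, the level was 3.81, 2.33 and 1.15 CPM in the control mice, 16.1, 29.3 and 42.1 CPM in the DSS mice and 9.74, 11.2 and 15.2 CPM in the DSS + EA mice, and the 3 groups no longer overlapped. The sum rose by 3.50 on the log2 scale with DSS (edgeR adjusted p = 0.000432) and fell by 1.27 with EA (edgeR adjusted p = 0.0313). It was 2.23 above control in the DSS + EA group (edgeR adjusted p = 0.0321), so adding the copy turned both comparisons of *Ccl19* with the DSS + EA group into calls.

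**Figure D3:**
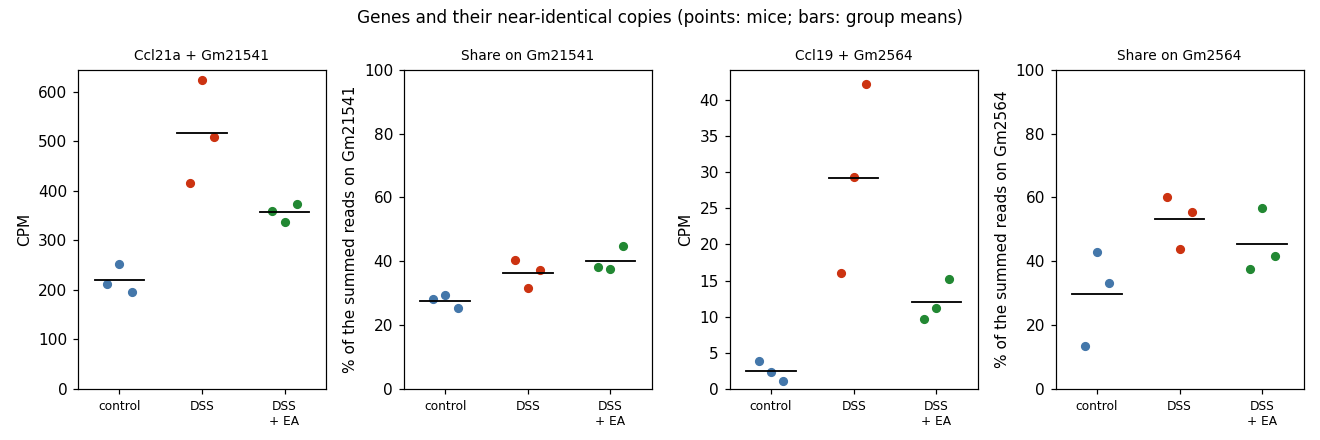
Summed CPM of *Ccl21a* with *Gm21541* and of *Ccl19* with *Gm2564*, and the percent of the summed reads that lie on the copy, with each point a mouse and each bar the mean of 3 mice. The summed *Ccl19* level is separate in the 3 groups, and the *Gm21541* share is lowest in the control mice.

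*Cxcl12* (ENSMUSG00000061353, chr6:117168535-117181367, + strand) encodes the CXCR4 ligand that keeps leukocytes and progenitors near stroma. It had 63.5, 61.5 and 77.8 CPM in the control mice, 230.0, 279 and 537 CPM in the DSS mice and 115, 108 and 93.6 CPM in the DSS + EA mice. The groups did not overlap, and DSS mouse 3 was the highest of all. On the log2 scale it rose by 2.37 with DSS (edgeR adjusted p = 0.000401, standard error 0.31) and fell by 1.72 when EA was added (edgeR adjusted p = 0.00264, standard error 0.30). The DSS + EA mice were all above the control mice, by 0.64 on the log2 scale (95% interval -0.02 to 1.31, edgeR adjusted p = 0.308), a difference that was not called in the fit of all groups. With only those groups in the fit, it was called (edgeR adjusted p = 0.0259). The genes most like it over the 9 libraries were *Cflar* (r = 0.994), *Ifitm2* (r = 0.991) and *Hsd11b1* (r = 0.989).

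*Ackr3* (ENSMUSG00000044337, chr1:90203980-90216751, + strand), the scavenger of CXCL12, had 4.57, 3.99 and 5.37 CPM in the control mice, 21.9, 36.7 and 32.5 CPM in the DSS mice and 4.57, 5.60 and 4.12 CPM in the DSS + EA mice. Every DSS mouse was above every other mouse, and the control and DSS + EA mice overlapped. *Ackr3* rose by 2.71 with DSS on the log2 scale (edgeR adjusted p = 0.000125, standard error 0.28) and fell by 2.67 when EA was added (edgeR adjusted p = 0.000359, standard error 0.28). Against control, its log2 fold change in the DSS + EA group was 0.04, with a 95% interval from -0.64 to 0.72 (edgeR adjusted p = 0.973), so that a change of 1 on the log2 scale in either direction lies outside that interval. *Tgfbr3*, with r = 0.991, was the named gene most like it, after a locus without a gene symbol (r = 0.992).

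*Cxcl14* (ENSMUSG00000021508, chr13:56288643-56296551, - strand), a chemokine of epithelium and stroma, had 4.57, 4.32 and 6.90 CPM in the control mice, 13.5, 17.6 and 3.74 CPM in the DSS mice and 21.6, 3.74 and 4.12 CPM in the DSS + EA mice. The groups overlapped: DSS mouse 3 was below every control mouse, and DSS + EA mouse 1 was the highest of all 9 mice. No comparison was called. Its difference on the log2 scale was 1.17 with DSS (95% interval -0.44 to 2.78, edgeR adjusted p = 0.222) and -0.24 with EA (95% interval -1.76 to 1.29, edgeR adjusted p = 0.808), and both intervals reach beyond 1 in at least one direction.

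*Cxcl16* (ENSMUSG00000018920, chr11:70453983-70459984, - strand) encodes a membrane-bound ligand of CXCR6 made by macrophages and dendritic cells. It was at 10.4, 9.31 and 10.7 CPM in the control mice, 38.3, 40.4 and 58.4 CPM in the DSS mice and 22.5, 21.7 and 21.3 CPM in the DSS + EA mice. The 3 groups did not overlap, and the spread within the control and DSS + EA groups was under 1 CPM (SD 0.747 and 0.648). *Cxcl16* rose by 2.16 with DSS on the log2 scale (edgeR adjusted p = 0.000132, standard error 0.22) and fell by 1.06 when EA was added (edgeR adjusted p = 0.00495, standard error 0.21). The DSS + EA group remained 2.14-fold above control (log2 fold change 1.10, edgeR adjusted p = 0.0274, standard error 0.23), a call lost in 7 of 17 alternatives while the log2 fold change stayed between 1.04 and 1.14. Exons of *Cxcl16* overlap those of *Zmynd15* on the opposite strand, which had 79 counts in all 9 libraries together. *Saa3*, an acute-phase gene, was the named gene most like *Cxcl16* (r = 0.990), after a pair of loci without a gene symbol.

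*Ccl20* (ENSMUSG00000026166, chr1:83116766-83119167, + strand) encodes the CCR6 ligand of the epithelium over lymphoid follicles. It had 6.61, 4.65 and 3.07 CPM in the control mice, 19.6, 13.5 and 13.7 CPM in the DSS mice and 20.4, 13.4 and 18.1 CPM in the DSS + EA mice. All 6 mice given DSS were above all control mice, and the DSS and DSS + EA mice overlapped. Against control, *Ccl20* was higher by 1.67 on the log2 scale with DSS alone (edgeR adjusted p = 0.00304, standard error 0.32), and by 1.82 with DSS + EA (edgeR adjusted p = 0.0149, standard error 0.32). The difference with EA was 0.16, with a 95% interval from -0.50 to 0.81 (edgeR adjusted p = 0.702), which leaves out a fall as large as the rise with DSS. The call against control was lost in 4 of 17 alternatives, without control mouse 2 or 3 or without DSS + EA mouse 1 or 3. *Gml* (r = 0.941) and *Ripk3* (r = 0.931) were the named genes most like it.

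*Ccl28* (ENSMUSG00000074715, chr13:119623819-119654359, + strand), the mucosal chemokine for plasma cells, had 40.7, 53.9 and 26.4 CPM in the control mice, 23.8, 5.21 and 4.99 CPM in the DSS mice and 28.3, 18.7 and 25.4 CPM in the DSS + EA mice. All DSS mice were below all control mice, but DSS mouse 1 was near the lowest control mouse and among the DSS + EA mice. *Ccl28* fell by 1.85 on the log2 scale with DSS (edgeR adjusted p = 0.0228, standard error 0.55). Without DSS mouse 1 the log2 fold change was -3.00 (edgeR adjusted p = 0.00021), and without control mouse 1 or 2 or DSS mouse 2 or 3 the call was lost (adjusted p from 0.0543 to 0.0746, edgeR). The difference with EA was 1.11 (edgeR adjusted p = 0.139, standard error 0.55), and 2.26 without DSS mouse 1 (edgeR adjusted p = 0.00118). The DSS + EA group was -0.74 from control (edgeR adjusted p = 0.528). *Pdzk1ip1* (r = 0.976) and *Stau2* (r = 0.975) were the named genes most like *Ccl28*.

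*Cx3cl1* (ENSMUSG00000031778, chr8:94772009-94782427, + strand) encodes fractalkine, the membrane-bound ligand of CX3CR1 on macrophages. Its level was 16.8, 13.6 and 21.1 CPM in the control mice, 8.04, 4.35 and 2.18 CPM in the DSS mice and 12.5, 10.1 and 13.6 CPM in the DSS + EA mice. Every DSS mouse was below every other mouse, and the highest DSS + EA mouse reached the lowest control mouse. *Cx3cl1* fell by 1.82 on the log2 scale with DSS (edgeR adjusted p = 0.00533, standard error 0.39) and was 1.32 higher when EA was added (edgeR adjusted p = 0.0281, standard error 0.40). The call with EA was lost in 5 of 17 alternatives: with only those groups in the fit, or without DSS mouse 2 or 3 or DSS + EA mouse 1 or 3 (adjusted p from 0.0546 to 0.0893, edgeR). *Tep1* (r = 0.990), *Cldn3* (r = 0.989) and *Ffar2* (r = 0.987) were most like it, and *Cldn3* encodes a claudin of epithelial tight junctions.

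Among the 10 genes themselves, log2 CPM of *Cxcl13* and *Cxcl16* had the highest Pearson correlation over the 9 libraries (r = 0.966), followed by *Cxcl12* and *Cxcl16* (r = 0.958). *Cxcl12* and *Cx3cl1* had the lowest (r = -0.948). These values describe libraries in 3 groups, share each library's depth, and carry no test.

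The 250 bases before the RefSeq transcription start (GRCm38.p6) were read for 9 of the 10 genes, and no window was matched for *Cxcl16*. Those of *Cxcl13*, *Ackr3* and *Ccl20* are shown, since *Cxcl13* and *Ackr3* were DEGs in the comparisons of the DSS group with each other group, and *Ccl20* was called with DSS and not with EA. Capitals mark matches, on either strand, to TATAAA (12.4% of all 32851 mouse windows of this length), to GGGAGATTT, a kappaB variant known from the *Cxcl13* promoter (0.283%), and to the kappaB consensus (7.25%).
Cxcl13 (chr5:95956689-95956938, + strand): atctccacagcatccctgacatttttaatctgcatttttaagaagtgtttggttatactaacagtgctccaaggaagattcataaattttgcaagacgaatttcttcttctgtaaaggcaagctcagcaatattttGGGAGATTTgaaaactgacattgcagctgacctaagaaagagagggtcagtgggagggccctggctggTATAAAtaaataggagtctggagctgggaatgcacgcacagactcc
Ackr3 (chr1:90203730-90203979, + strand): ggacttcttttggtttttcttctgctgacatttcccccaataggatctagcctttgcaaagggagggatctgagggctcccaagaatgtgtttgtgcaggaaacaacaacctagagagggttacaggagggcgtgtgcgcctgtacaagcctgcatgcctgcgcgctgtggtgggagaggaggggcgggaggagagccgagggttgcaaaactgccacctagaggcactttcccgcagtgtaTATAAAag
Ccl20 (chr1:83116516-83116765, + strand): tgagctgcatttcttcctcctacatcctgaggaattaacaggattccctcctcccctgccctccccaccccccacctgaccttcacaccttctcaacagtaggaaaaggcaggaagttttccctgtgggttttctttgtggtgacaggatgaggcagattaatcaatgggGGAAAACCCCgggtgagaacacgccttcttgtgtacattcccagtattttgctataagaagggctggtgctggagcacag

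In the *Cxcl13* window, GGGAGATTT lay 114 to 106 bases and TATAAA 46 to 41 bases before the start. The *Ccl20* window held the only kappaB consensus match among the 9 windows, 80 to 71 bases before the start, and the *Ackr3* window held TATAAA 8 to 3 bases before it. TATAAA was also matched in the *Cx3cl1* window, 6 to 1 bases before the start. TTCNNNGAA (7.02% of all windows) was matched in the *Cxcl14* window, and TGANTCA (6.75%) in none of the 9. A match describes letters, not a site in use.

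The receptors were read from a fixed list of 11 genes, the receptors of these ligands and the proteases ADAM10 and ADAM17, which cut CXCL16 and CX3CL1 from the membrane. Only 6 passed the filter on low counts: with DSS 1 was higher, 2 were lower and 3 were not called, and with EA 1 was higher, 1 lower and 4 not called. Between the DSS + EA and control groups, 0 of the 6 were called by edgeR, and *Ackr4* alone besides *Cxcr4* had an unadjusted p under 0.05 (0.021 and 0.00353). The shares of all genes tested were 21.5% higher and 19.5% lower with DSS, and 17.2% and 18.3% with EA. Between the DSS + EA and control groups they were 3.00% and 0.637%, so 0 calls among 6 genes is near the share of all genes. The median log2 fold change of the 6 was -0.02 with DSS and 0.36 with EA.

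*Cxcr4*, the signalling receptor of CXCL12, had 1.52, 0.997 and 1.15 CPM in the control mice, 8.36, 8.47 and 9.36 CPM in the DSS mice and 4.26, 3.36 and 2.54 CPM in the DSS + EA mice. The 3 groups did not overlap, although the control values rest on 6, 3 and 3 reads. It rose by 2.77 with DSS on the log2 scale (edgeR adjusted p = 0.00031, standard error 0.34) and fell by 1.35 when EA was added (edgeR adjusted p = 0.00794, standard error 0.30). It thus differed in the same direction as *Cxcl12* and *Ackr3* in each of these comparisons.

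*Cx3cr1*, the receptor of fractalkine, had 4.07, 3.66 and 5.37 CPM in the control mice, 0.643, 1.52 and 0.312 CPM in the DSS mice and 6.39, 2.24 and 5.39 CPM in the DSS + EA mice. Every DSS mouse was below every other mouse, with at most 7 reads. *Cx3cr1* fell by 2.24 on the log2 scale with DSS (edgeR adjusted p = 0.011, standard error 0.56) and was 2.36 higher when EA was added (edgeR adjusted p = 0.0103, standard error 0.56), the same directions as its ligand gene *Cx3cl1*.

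*Ackr4*, which removes CCL19 and CCL21, fell by 1.13 with DSS on the log2 scale (edgeR adjusted p = 0.0224, standard error 0.34) and was not called with EA (0.21, edgeR adjusted p = 0.66). It had 8.64, 8.31 and 14.6 CPM in the control mice and between 4.06 and 6.39 CPM in the 6 mice given DSS. *Ccr7*, the signalling receptor of the same ligands, had between 4 and 21 reads per mouse and was not called in any comparison (log2 fold change 0.61 with DSS, adjusted p = 0.366, and 0.50 with EA, edgeR adjusted p = 0.424). *Adam10* and *Adam17* were also not called.

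*Ccr10*, the plasma cell receptor of CCL28, did not pass the filter. It had 23, 15 and 6 reads in the control mice, 1, 0 and 0 in the DSS mice and 6, 3 and 6 in the DSS + EA mice. Against a floor of 3 counts in each library it was at least 5.14-fold lower with DSS than in controls. In the edgeR fit without the filter, the difference was called with DSS (adjusted p = 0.000455) and with EA (adjusted p = 0.0116). *Cxcr6*, the receptor of CXCL16, had 5, 4 and 3 reads in the control mice, 0, 1 and 2 in the DSS mice and 11, 6 and 4 in the DSS + EA mice, and in the same unfiltered fit it was called with EA (adjusted p = 0.0152) and not with DSS (adjusted p = 0.0821). *Cxcr5*, the CXCL13 receptor, had at most 9 reads in a mouse, *Ccr6* at most 2 and *Ccr3* at most 4, and no difference in them was called in that fit. A difference that was not called does not show that these receptors were alike in the groups.

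**Figure D4:**
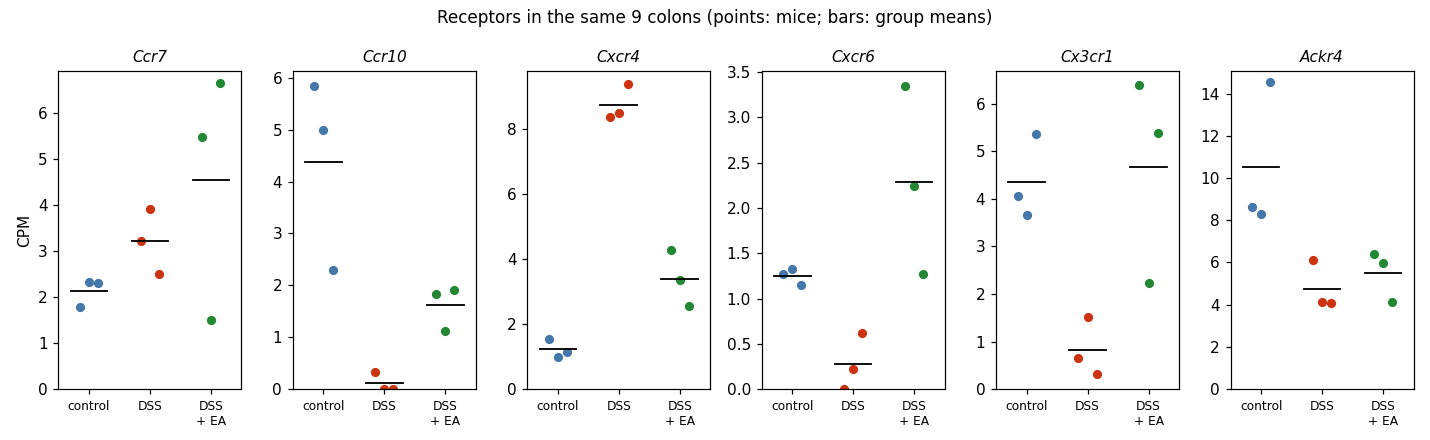
CPM of 6 receptor genes from 0, with each point a mouse and each bar the mean of 3 mice. *Cxcr4* is highest in the DSS mice, and *Ccr10* and *Cx3cr1* are lowest in them. *Ccr10* and *Cxcr6* did not pass the filter on low counts.

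A fixed list of 15 genes of the lymphoid organiser pathway, the lymphotoxin and RANK signals through which stroma is set to make these chemokines and the adhesion molecules of such stroma and its vessels, had 12 members tested. Among all genes tested, 21.5% were called higher and 19.5% lower with DSS, and 17.2% and 18.3% with EA. With DSS 4 were higher (*Tnfsf11*, *Madcam1*, *Vcam1* and *Icam1*), 0 were lower and 8 were not called, with a median log2 fold change of 0.78. With EA, 4 were lower, 0 higher and 8 not called, with a median of -0.71, and no member that was higher had an unadjusted p under 0.05. The 4 are adhesion molecules and RANKL, and not the lymphotoxin genes themselves: *Ltb* (0.57 with DSS, edgeR adjusted p = 0.422) and its receptor gene *Ltbr* (0.36, edgeR adjusted p = 0.302) were not called.

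*Madcam1*, the gut vessel adhesion molecule that binds homing lymphocytes, had 2.03, 2.99 and 2.68 CPM in the control mice, 13.2, 24.3 and 24.7 CPM in the DSS mice and 7.61, 10.1 and 8.88 CPM in the DSS + EA mice. The 3 groups did not overlap, and the log2 fold change was 3.02 with DSS (adjusted p = 0.000187), -1.23 with EA (adjusted p = 0.0106) and 1.78 for DSS + EA against control (edgeR adjusted p = 0.0225). *Vcam1* differed by 3.52, -0.88 and 2.64 in the same order (adjusted p = 2.9e-05, 0.0153 and 0.0018, edgeR), and *Icam1* by 4.74, -2.80 and 1.94 (adjusted p = 7.34e-05, 0.000856 and 0.0454, edgeR). *Tnfsf11*, which encodes RANKL, had 0 reads in every control mouse, 10, 21 and 25 reads in the DSS mice and 7, 0 and 1 in the DSS + EA mice. It was at least 5.36-fold higher with DSS than control, against a floor of 3 counts in each library (edgeR adjusted p = 0.00537), and was called lower with EA (edgeR adjusted p = 0.0411).

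Marker genes of the cell types that can make these chemokines or respond to them moved with the groups. Their counts of calls stand beside 21.5% higher and 19.5% lower among all genes tested with DSS, and 17.2% and 18.3% with EA. All 12 fibroblast markers tested were higher with DSS, and their summed level was 867 to 935 CPM in control mice, 4363 to 7099 CPM in DSS mice and 1764 to 1838 CPM in DSS + EA mice. Of the lymphatic endothelium markers 5 of 6 tested were higher (the list includes *Ccl21a*), of the blood endothelium markers 7 of 9, of the macrophage markers 9 of 10 and of the neutrophil markers 9 of 9; *Pdpn* is on both the fibroblast and the lymphatic list. In control, DSS and DSS + EA mice, the lymphatic sum with *Ccl21a* left out was 37.6 to 44.8, 158 to 188 and 46.3 to 71.0 CPM (191 to 215, 407 to 602 and 252 to 281 CPM with it), and the blood endothelium sum 62.5 to 77.5, 153 to 206 and 80.9 to 84.4 CPM. The macrophage sum was 220 to 258, 973 to 1409 and 588 to 644 CPM, and the neutrophil sum 25.7 to 161, 4526 to 27207 and 1218 to 1608 CPM. These lists thus were higher in every DSS mouse than in any control mouse. Of the colon epithelium markers 8 of 12 were lower and none higher, and their sum was 12519 to 28986 CPM in control mice, 1456 to 7626 CPM in DSS mice and 9272 to 15697 CPM in DSS + EA mice. Smooth muscle markers were lower in 7 of 8, with sums of 2915 to 3618, 1164 to 2209 and 2259 to 2325 CPM. With EA, 9 of 12 fibroblast, 5 of 6 lymphatic endothelium and 6 of 9 blood endothelium markers were lower. So were 7 of 10 macrophage and 7 of 9 neutrophil markers, and 0 markers of these lists were higher. Of the colon epithelium markers 6 of 12 were higher with EA, of the smooth muscle markers 2 of 8, and 0 were lower. No list had a marker at 0 in every mouse. The part that these shifts have in the changes of the 10 genes was not tested.

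Markers of lymphocytes were low. The counts of calls in the lists below again stand beside 21.5% higher and 19.5% lower among all genes tested with DSS. With EA these shares were 17.2% and 18.3%. Of the 11 B cell markers found, 3 were tested: 0 were called with DSS (edgeR, *Ms4a1* alone under an unadjusted p of 0.05, at 0.0311 and lower) and 2 were higher with EA. The sum of the list was 22.2 to 40.9 CPM in control mice, 16.5 to 33.5 CPM in DSS mice and 38.1 to 81.5 CPM in DSS + EA mice. Of 9 T cell markers 4 were tested: 0 were called with DSS (edgeR, *Cd3d* alone under an unadjusted p of 0.05, at 0.0473 and higher) and 1 was higher with EA. The sums were 15.3 to 23.4, 14.8 to 27.8 and 26.1 to 31.4 CPM in the same order of groups. B and T cell sums of the DSS mice thus overlapped those of the control mice, in the same libraries in which *Cxcl13*, *Ccl19* and *Ccl21a* were all higher. Plasma cell markers summed to 1536 to 2881 CPM in control mice, 282 to 616 CPM in DSS mice and 459 to 814 CPM in DSS + EA mice, with 3 of 7 lower and 1 higher with DSS. With EA, 2 of the 7 plasma cell markers were higher and 1 was lower. Of the dendritic cell markers 3 were tested. *Batf3* alone was called, higher in the DSS comparison and lower in that of EA, and the sums were 12.3 to 15.3, 11.3 to 21.5 and 7.10 to 18.1 CPM. Of 5 tested markers of follicle-associated epithelium and M cells, 3 were higher and 1 lower with DSS, and 1 was higher and 2 were lower with EA. The sums over all 7 listed markers were 201 to 231, 298 to 435 and 322 to 820 CPM. In DSS + EA mice 1 to 3 they were 322, 820 and 461 CPM. The most abundant tested marker, *Anxa5*, had means of 181, 226 and 222 CPM in the 3 groups and was not called. The next, *Ccl9*, had a mean of 34.8 CPM in DSS + EA mice. Part of the DSS + EA sums thus lay on markers that did not pass the filter and were not tested.

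Each gene was also set against the summed level of a marker list, with the lists assigned after the values were seen and no test made. *Cxcl12* per 1000 CPM of fibroblast markers was 65.8 to 84.0 in control mice, 52.7 to 75.7 in DSS mice and 51.8 to 62.7 in DSS + EA mice, ranges that overlapped between neighbouring groups. *Cxcl16* per 1000 CPM of macrophage markers was 38.2 to 47.3, 39.4 to 41.4 and 33.0 to 36.8 in the same order. These genes and their marker lists were therefore higher with DSS by similar factors.

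*Cxcl13* per 1000 CPM of fibroblast markers was 6.62 to 18.8 in control mice, 132 to 355 in DSS mice and 42.4 to 97.2 in DSS + EA mice, without overlap. *Ackr3* per 1000 CPM of blood endothelium markers was 51.5 to 85.9, 143 to 178 and 51.0 to 66.4, with the DSS mice above all others. In both cases the gene was higher with DSS by more than the markers of the list assigned to it. Such a result depends on the list, and ratios to other lists were not computed. With DSS the median log2 fold change was 2.27 for fibroblast markers and 1.62 for blood endothelium markers. It was 2.37 for *Cxcl12* and 2.71 for *Ackr3*. The fibroblast sum was 867 to 935 CPM in control mice and 4363 to 7099 CPM in DSS mice. *Ackr3* itself was 3.99 to 5.37 CPM and 21.9 to 36.7 CPM in these groups. These ranges show no clear excess of *Ackr3* over the fibroblast sum. For *Ackr3* the result is therefore limited to the blood endothelium list.

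*Ccl20* per 1000 CPM of colon epithelium markers was 0.106 to 0.387 in control mice, 2.57 to 9.43 in DSS mice and 0.857 to 1.95 in DSS + EA mice. On this scale the DSS + EA mice lay below the DSS mice, also with *Car1* left out of the sum (2.36 to 3.03 against 4.21 to 16.8), while on the CPM scale they overlapped. The marker sum was 1456 to 7626 CPM in DSS mice and 9272 to 15697 CPM in DSS + EA mice. Mean *Ccl20* was 15.6 and 17.3 CPM in these groups. The lower ratio thus goes with the larger marker sum, and *Ccl20* itself was not called with EA. *Cx3cl1* on the same scale was 0.727 to 1.09, 1.05 to 1.50 and 0.642 to 1.47, and *Ccl28* was 0.912 to 4.30, 1.76 to 3.43 and 1.19 to 2.74. The control and DSS ranges overlapped for both genes. *Car1*, a colonocyte gene, held 62.3% of the marker sum in control mice and 36.4% in DSS mice. Without *Car1*, a choice made after seeing the data, *Cx3cl1* was 1.87 to 2.83 in control, 1.73 to 2.67 in DSS and 1.77 to 2.09 in DSS + EA mice, and *Ccl28* was 3.54 to 7.40, 2.39 to 6.10 and 3.27 to 4.21, again with overlap. The 4 markers of the list that were not called with DSS were *Epcam*, *Cdh1*, *Krt8* and *Krt19*. *Epcam* and *Cdh1* were 2.07-fold and 1.54-fold lower with DSS (edgeR adjusted p = 0.249 and 0.289), and *Ccl28* was 3.61-fold and *Cx3cl1* 3.53-fold lower in the same fit; the differences between these folds were not tested. *Ccl21a* per 1000 CPM of lymphatic endothelium markers, with *Ccl21a* left out of the list, was 3256 to 4735, 1569 to 2400.0 and 2963 to 4452, below the other groups in the DSS mice. That ratio depends on the markers summed. *Lyve1* held 54.2% of the sum in DSS mice and was 4.24-fold higher with DSS, and *Pdpn* was 11.1-fold higher. *Mmrn1* was 2.09-fold, *Flt4* 2.38-fold (not called) and *Reln* 3.34-fold higher, beside 2.09-fold for *Ccl21a*. *Ccl19* per 1000 CPM of fibroblast markers was 0.828 to 3.81, 1.47 to 3.16 and 2.75 to 4.92, and *Cxcl14* 4.62 to 7.45, 0.528 to 3.37 and 2.12 to 11.8.

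**Figure D5:**
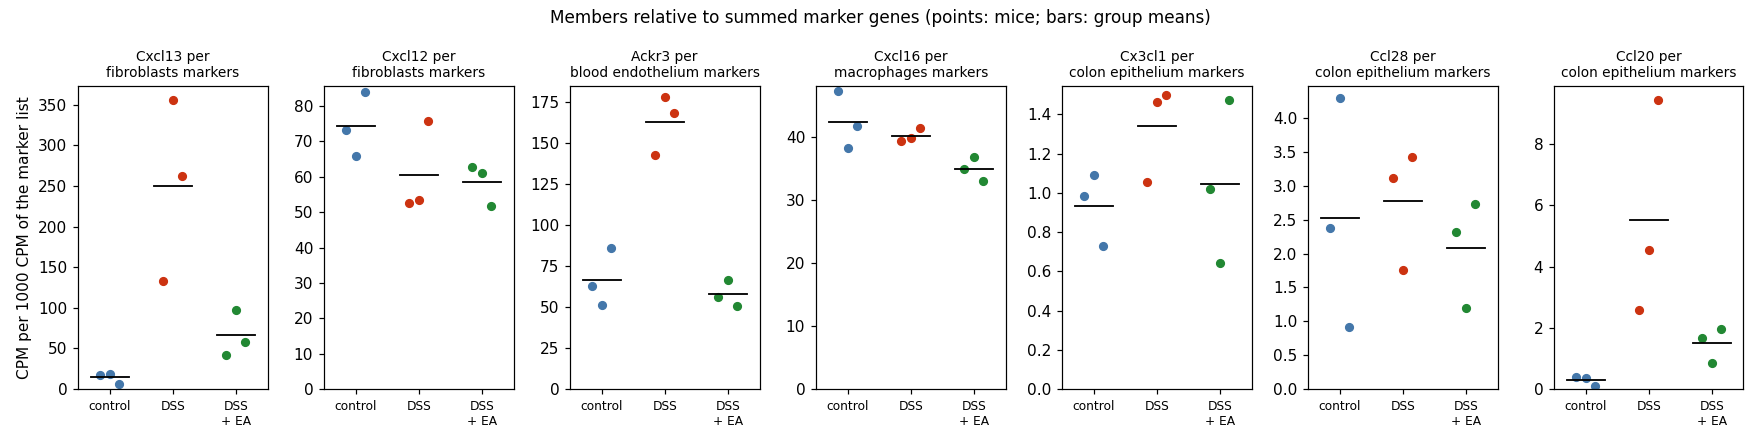
CPM of 7 genes per 1000 CPM of the summed markers of a cell type, with each point a mouse and each bar the mean of 3 mice. Each gene is set beside the list assigned to it and no other list. *Cxcl13*, *Ackr3* and *Ccl20* are highest in the DSS mice on this scale, while *Cxcl12* and *Cxcl16* are not.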

How the data were processed

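Colon RNA of 9 mice was read as full-length cDNA on a Nanopore PromethION instrument. The authors deposited unnormalized counts of reads on each gene; the submitters' processing notes name mm10, and the aligner, counter, annotation and use of strand are not given in the sources used here. Of 27733 lines, 14 without counts were skipped. Library totals lay between 2627695 and 4235576 counts.

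The test was that of edgeR 4.0.16 in R 4.3.3 (TMM, filterByExpr, glmQLFit and glmQLFTest with the group as the only term, 9 libraries, 12566 genes). A standard error is the log2 fold change divided by the square root of F. The smallest exact permutation p for 3 mice against 3 is 0.1. In simulated DSS against control counts of 12566 genes, edgeR recovered 90% of 200 changed genes and called 13 unchanged ones, and DESeq2 1.42.0 recovered 85.5% and called 12. The simulation gave every gene the same dispersion, changed genes only by large factors, and changed far fewer genes than were called in the data. These rates are therefore not the power of the test on the data.

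Positions and transcripts came from GENCODE M21 (GRCm38), promoter windows from RefSeq, and near copies from blastn 2.17.0 (at least 90% identity over 200 bases). Figures and annotation used matplotlib 3.10.9 and pandas 2.3.3 under Python 3.11.15.

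The genes named are the 10 members, their copies, genes of the fixed receptor, organiser and marker lists, a gene with overlapping exons, and, for the 9 members called with DSS, the 3 genes or loci of highest Pearson correlation (those with a gene symbol are named). Single marker genes and the overlapping gene were named after their values were seen. Members and lists were chosen with earlier results of these data known. Alternatives were DESeq2, RLE normalization, library totals, no filter, a filter at a mean of 20 counts, separate fits of each pair of groups, a prior count of 2, a replicate block, other thresholds and each mouse left out; adding the reads of near-identical copies and leaving the most abundant gene out of a marker sum were chosen after seeing the data. The replicate numbers come from the labels and do not pair the mice.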

Additional observations from a re-analysis of the deposited data

How the results depend on the processing

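Of 516 alternative fold changes of the 10 genes, 469 kept their direction and their side of the threshold, 34 lost the call, 5 gained one and 8 changed sign. The changes of *Cxcl13*, *Cxcl12*, *Cxcl16* and *Ackr3* with DSS and with EA were called at an adjusted p under 0.05 in every alternative fit. So were those of *Ccl19*, *Ccl21a*, *Ccl20* and *Cx3cl1* with DSS. Not all of these passed the DEG thresholds. Signs changed only where no call was made: *Cxcl14* with EA was 0.19 without DSS mouse 2, 0.17 without DSS + EA mouse 2 and 0.12 without DSS + EA mouse 3, and against control -0.43 without DSS + EA mouse 1; *Ackr3* in DSS + EA against control was -0.0014 with library totals, -0.018 with a mean of at least 20 counts, -0.06 without control mouse 2 and -0.085 without DSS + EA mouse 2. With each mouse left out, these 3 differences ranged from -1.58 to 0.19, from -0.43 to 1.31 and from -0.085 to 0.14. At the DEG thresholds 3 members were higher and 0 lower with DSS, 0 higher and 2 lower with EA, and 1 higher in DSS + EA against control. At an adjusted p under 0.01, 1 was lower with DSS, 0 higher with EA and 0 higher in DSS + EA against control. With only the groups compared in a fit, 1 was lower with DSS and 0 higher with EA. With each mouse left out, 1 to 2 were lower with DSS, 0 to 2 higher with EA and 1 to 3 higher in DSS + EA against control. Over all genes, the count higher with EA was 1441 with only those groups and 1410 without DSS + EA mouse 3; the count higher in DSS + EA against control was 790 with only those groups and 88 without control mouse 1; each mouse left out gave 88 to 599 higher and 14 to 173 lower in that comparison, where the edgeR counts were 377 and 80. There DESeq2 called 140 lower, the fit of only those groups 359 and the replicate block 51. At the DEG thresholds the counts were 832 higher and 448 lower with DSS, 366 and 440 with EA, and 219 and 42 in DSS + EA against control; at an adjusted p under 0.01 they were 1652 and 1294, 1020 and 1088, and 112 and 16. The replicate numbers do not pair the mice (correlations of same-numbered deviations -0.16 to 0.105); with the replicate block *Ccl21a* with EA was -0.61 (adjusted p = 0.0615, edgeR) and *Cxcl16* in DSS + EA against control 1.10 (adjusted p = 0.0527, edgeR), both calls lost. RLE normalization and library totals moved the median of all genes by less than 0.1. The causes of these shifts were not tested. *Cxcr5*, *Ccr6*, *Ccr3*, *Cxcr6* and *Ccr10* had too few reads for the filter, and their values come from the fit without it.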
